A study of Homo sapiens with 39 samples.

Results

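The DNA replication machinery was followed as 42 genes in pooled CRISPR knockout screens, and its members were taken as every guide named after one of these genes. The whole-genome library held 168 guides to all 42 members, 4 per gene, among 77441 guides and 19113 genes. The smaller epigenetic library held 80 guides to 8 members (ORC1, ORC4, CDC6, POLE, RFC4, RPA1, RPA2 and RRM1), 10 per gene, among 12214 guides and 1115 genes. The genes were chosen by name and role.

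Replication of a chromosome starts at origins, where the origin recognition complex (ORC), CDC6 and CDT1 load the MCM2-7 helicase as an inactive double ring. The kinase CDC7 with DBF4, together with CDC45, the GINS complex and MCM10, turns the ring into the active CMG helicase, and polymerase alpha-primase, delta and epsilon then copy the opened strands with the help of the PCNA clamp, its RFC loader, the single-strand binder RPA and the nucleotides made by ribonucleotide reductase. A dividing cell needs nearly all of these proteins, so that loss of guides to them during culture is the usual readout of a knockout screen for growth.

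All libraries came from A375, an established melanoma line with an activating BRAF mutation, purchased from ATCC, in which a subunit of the Mediator coactivator complex had already been knocked out. In the whole-genome screen, MED12 KO cells were sampled after growth with 2 µM vemurafenib, an inhibitor of mutant BRAF, or with the solvent DMSO at day 8 and day 14, and at day 0. The epigenetic library was screened in MED12 KO cells with the same arms and in MED23 KO cells with 1 µM vemurafenib or DMSO at day 14, and at day 0. Each of the 13 groups had 3 libraries, 39 in all, and no cells with intact Mediator and no plasmid library were analysed here, so every comparison lies within a knockout background or between both. The labels name neither the clones nor the interval between transduction and day 0, nor whether replicates were separate cultures, so p-values measure only the spread between these libraries.

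What was counted was the number of reads of each guide, amplified by PCR from genomic DNA. Libraries of the whole-genome screen held 47766947 to 87591804 reads, those of the epigenetic screens 16385695 to 20814734 in MED12 KO cells and 22846325 to 28994690 in MED23 KO cells. The reads had no molecular identifiers, so they are not independent molecules. The share of reads in the top 1% of guides ran from 3.97 to 30% in the whole-genome screen, from 4.02 to 15.7% in the epigenetic screen of MED12 KO cells and from 3.62 to 56.2% in that of MED23 KO cells, each time highest in day-14 vemurafenib. A gene's level is given below as reads of its guides summed, in RPM, the usual scaling of read counts to library size (CPM in edgeR), after TMM normalization (scaled RPM), for replicates 1, 2 and 3 in that order. Growth means day-14 DMSO against day 0 unless day 8 is named, and a gene was called at an adjusted p of 0.05 by edgeR's quasi-likelihood test on the summed counts with Benjamini-Hochberg adjustment over all genes of the table.

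Set against guides without a target, the median guide to a replication gene stood lower at day 14 than at day 0 in every screen. Untargeted guides were the 1000 labelled NO_CURRENT in the whole-genome library and the 83 labelled CTRL in the epigenetic library. The 714 guides labelled Zhang and the 267 labelled AAVS1 in the epigenetic library were not among them. A growth cost of cutting DNA as such was not tested. In the whole-genome screen the median member guide stood at 19.4, 17.3 and 17.6% of the median untargeted guide at day 0, at 6.2, 5.59 and 5.88% at day 8 in DMSO and at 2.23, 1.38 and 2.43% at day 14 in DMSO. The levels at the 3 times did not overlap. The median over guides to all genes was 31, 30.4 and 30.9% at day 0 and 17.3, 16.8 and 17% at day 14 in DMSO, so the member guides were already below it at the start. In the epigenetic screen of MED12 KO cells the median member guide stood at 9.76, 15.9 and 11.7% of the untargeted level at day 14 in DMSO, against 23.1, 25.4 and 26.1% at day 0. In MED23 KO cells it stood at 9.46, 7.13 and 7.72% at day 14 in DMSO, against 80.6, 83.1 and 81% at day 0, when guides to all genes stood at 76 to 81.4%. At day 0 the member guides thus lay far below the untargeted guides in both MED12 KO screens and near them in the MED23 KO screen. What separates the start populations (the time before day 0, the genotype or the transduction) was not tested.

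**Figure D1:**
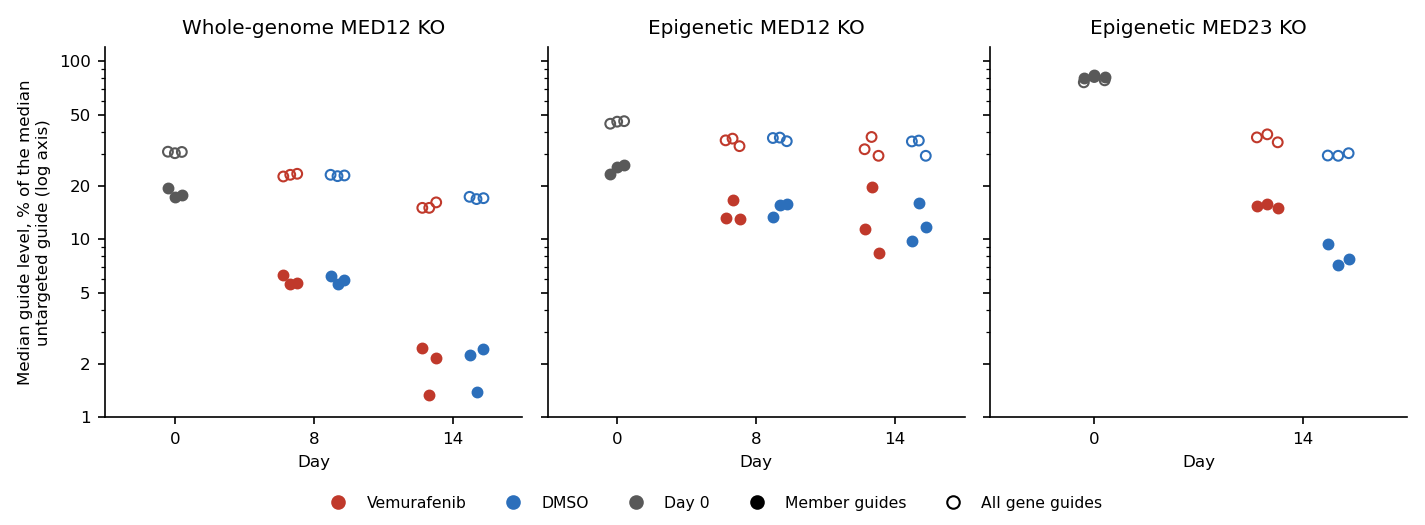
Median level of the guides to replication genes (filled) and of guides to all genes (open) as a percentage of the median untargeted guide in the same library, on a log axis, by day, with 3 libraries per group, for vemurafenib (red), DMSO (blue) and day 0 (grey). In the whole-genome screen the member guides lie at 17.3 to 19.4% at day 0 and below 2.5% at day 14 in both arms, and in MED23 KO cells the 3 vemurafenib libraries lie above the 3 DMSO libraries.

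Of the 167 member guides of the whole-genome screen that passed the filter on low counts, 86 (51.5%) had a log2 fold change below -1 in growth to day 14, against 20.5% of guides to all genes and 2.11% of untargeted guides. The median log2 fold change was -1.17 over member guides, 0.29 over guides to all genes and 0.88 over untargeted guides. At day 8 in DMSO, 41.9% of member guides were already below -1, against 11% of guides to all genes and 0.802% of untargeted guides. No single member guide passed edgeR's test, nor did any of the 76161 gene guides tested fall by it at day 14. At day 0 each of the 168 guides had reads in every library, whereas 35 to 46 (20.8 to 27.4%) had none in a day-14 DMSO library. Of all guides 7.41 to 8.7% had none there. In a day-14 vemurafenib library 46 to 52 member guides (27.4 to 31%) had none, against 9.48 to 10.3% of all guides.

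In all, 10 guides of 9 genes had no read in any of the 3 day-14 DMSO libraries. With 3 reads per library taken as the upper limit that a count of 0 allows, the largest bound was that of GINS3_4, which was at least 72.3-fold lower than at day 0, when it had 261, 172 and 289 reads. POLA2_1 was at least 65.3-fold lower, MCM7_1 at least 51.2-fold and MCM4_3 at least 36.1-fold. RRM2 lost 2 of its 4 guides in this way. In vemurafenib 18 guides of 17 genes had no read in any day-14 library, with the largest bounds for POLD2_1 (at least 109-fold lower than at day 0) and RFC3_2 (at least 102-fold). These limits cover counting error only, and guides to other genes were not counted in this way.

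**Figure D2:**
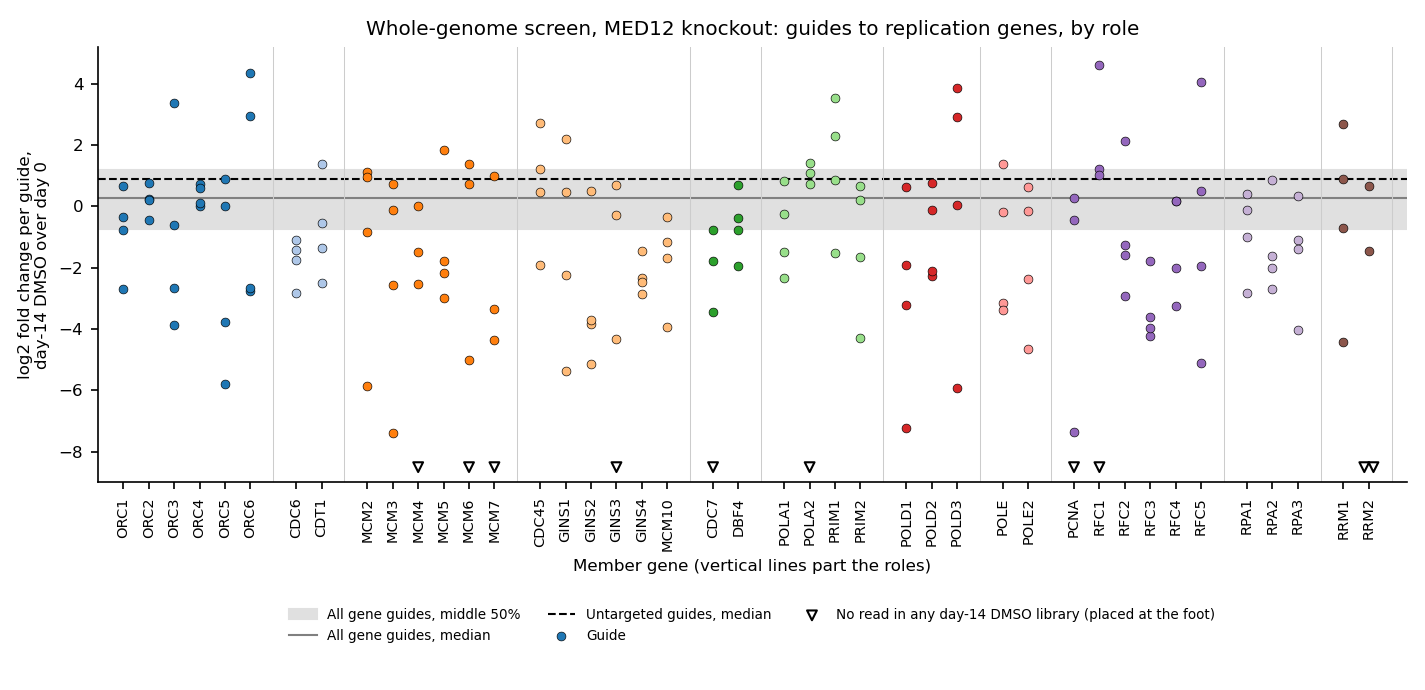
Log2 fold change of each guide in the whole-genome screen, day-14 DMSO over day 0, by member gene and role (vertical lines). Open triangles at the foot mark the 10 guides with no read in any day-14 DMSO library, the grey band is the middle 50% of guides to all genes, and most genes have guides both far below the band and inside or above it.

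Summed over its 4 guides, no member passed the test for growth to day 14 (0 of 42 by edgeR's quasi-likelihood test, where 0.0366% of all genes passed), although 7 members had an unadjusted p below 0.05. The median log2 fold change was -0.80 over the 42 members and 0.23 over all genes, and 31 members lay below 0. In 12 members (28.6%) all 3 day-14 DMSO libraries lay below all 3 day-0 libraries, which held for 12.6% of all genes, and in 1 (ORC6) they lay above, which held for 10.3%. Libraries with the same replicate number deviated together in this screen, and with the replicate number as a block 5 members passed (4.72% of all genes): GINS4, MCM10, CDC6 and POLD1 fell (3.02% of all genes did) and ORC6 rose (1.71%). DESeq2 called 4 members (4.66% of all genes) and robust rank aggregation of the guides called 0 (0.152%).

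A sum is set by the guides with the most reads, so a score that gives each guide the same weight, the mean over guides of log2(CPM + 0.5), was computed beside it. By limma on these scores 25 of 42 members (59.5%) were lower at day 14 in DMSO than at day 0, against 16.9% of all genes. All 42 scores lay below 0, with a median of -1.55 against -0.71 over all genes. By limma 16.9% of all genes were called lower and 0.131% higher on scores. A score below 0 is thus not particular to the members. The sum and the score had opposite signs for 11 members: CDC45, GINS1, MCM6, ORC3, ORC6, POLA2, POLD3, PRIM1, RFC1, RFC5 and RRM1. In 33 of 42 members a single guide held more than 50% of the gene's day-14 DMSO reads. The largest guide's share had a median of 66.1% and ran from 32.7 to 94.1%, and 37 members had at least 1 guide above 0. These shares and counts were not set beside those of all genes, so they are not shown to be particular to the members.

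**Figure D3:**
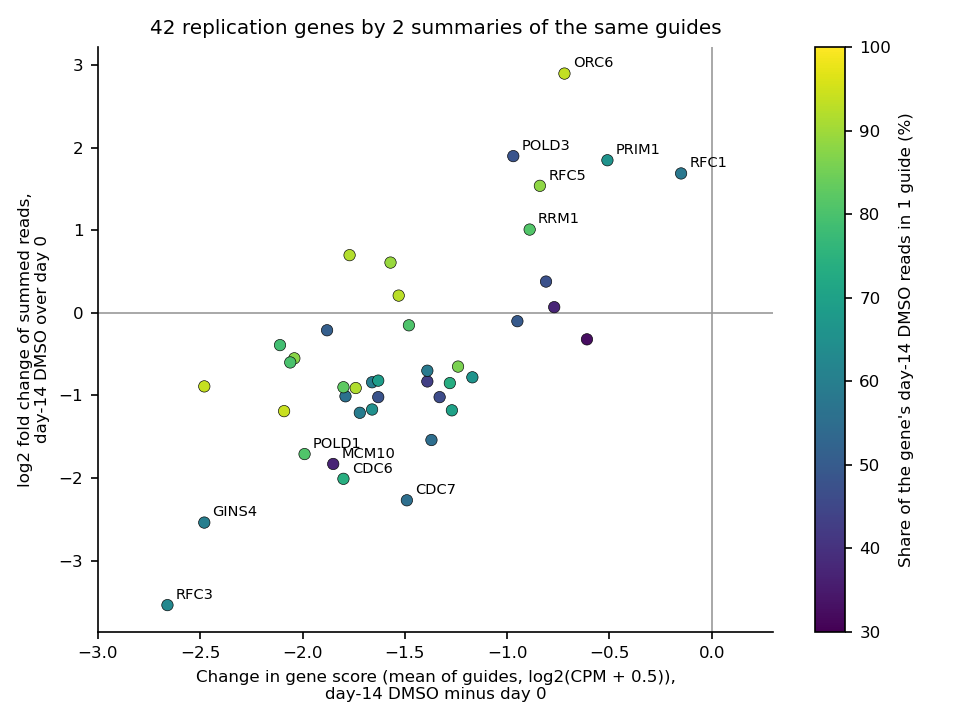
Growth of the 42 replication genes to day 14 in the whole-genome screen by change in gene score (x axis, mean of guides) and by log2 fold change of summed reads (y axis), coloured by the share of the gene's day-14 DMSO reads held by a single guide. All scores lie below 0 while 11 sums lie above it, ORC6 highest and RFC3 lowest. The median score change over all genes was also below 0, at -0.71.

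The shares over all genes, for setting beside each role, were 20.5% of guides below -1 and 16.9% of genes lower by gene scores. Among the ORC subunits, which mark origins, 7 of 24 guides (29.2%) were below -1 and the median guide was at 0.02. ORC6 had 236, 99.3 and 27.6 scaled RPM in day-14 DMSO, against 16.5, 18.6 and 13.7 at day 0. All DMSO libraries were above all day-0 libraries, with replicate 1 highest, and the log2 fold change of 2.90 ± 1.07 (SE) did not pass (adjusted p = 0.327) unless replicate number was a block (2.13, edgeR adjusted p = 0.042). A single guide carried this level: ORC6_4 had 14629, 6251 and 5 reads in day-14 DMSO, against 904, 930 and 463 at day 0, so it was abundant in replicates 1 and 2 and nearly absent from replicate 3, where ORC6_2 had 1319 reads. The guides ORC6_1 and ORC6_3 had log2 fold changes of -2.75 and -2.67. ORC1, the largest ORC subunit, had 2.28, 9.85 and 12 scaled RPM in day-14 DMSO, against 17.7, 16.8 and 20.1 at day 0. These groups did not overlap, but the log2 fold change of -1.18 ± 0.83 did not pass (adjusted p = 0.631). ORC4 had 48.8, 8.37 and 10.7 in day-14 DMSO, against 27.3, 18.4 and 26.9 at day 0, with replicate 1 above and the others below day 0 (-0.10 ± 0.98). By gene scores 2 of the 6 subunits, ORC3 and ORC5, were lower.

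The licensing factors CDC6 and CDT1, which bring the helicase to ORC, had 6 of 8 guides below -1. CDC6 had 5.28, 1.01 and 7.25 scaled RPM in day-14 DMSO, against 22.1, 12.9 and 19.4 at day 0. Every DMSO library was below every day-0 library, and in each replicate the DMSO level was below the day-0 level of the same number. The log2 fold change was -2.01 ± 0.75 (edgeR adjusted p = 0.334, and -2.34 with an adjusted p of 0.021 with the replicate block). All 4 CDC6 guides were below -1, which held also for GINS4 and RFC3. CDT1 had 15.1, 30.8 and 8.17 in day-14 DMSO, against 32.3, 30.4 and 34.3 at day 0, and its groups overlapped through replicate 2 (-0.84 ± 0.64, adjusted p = 0.656). By gene scores both were lower, CDC6 with a change of -1.80 (adjusted p = 0.00477) and CDT1 with a change of -1.66 (adjusted p = 0.0169).

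The 6 subunits of the MCM2-7 ring had 14 of 24 guides below -1, against 20.5% of guides to all genes. All 6 were lower by gene scores, against 16.9% of all genes. Their score changes lay between -2.48 and -1.53, against a median of -0.71 over all genes. Their sums did not show this, with a median of -0.57. MCM4 had 0.5, 2.58 and 24.3 scaled RPM in day-14 DMSO, against 14.7, 17.9 and 18.9 at day 0. Replicates 1 and 2 were far below day 0 and replicate 3 above it, so the groups overlapped (-0.91 ± 1.46, adjusted p = 0.84). MCM6 had 32.4, 70.9 and 22.3 in day-14 DMSO, against 29.5, 39 and 40.3 at day 0, with replicate 2 highest of all 6 libraries. Its sum did not pass (0.21 ± 0.62, edgeR adjusted p = 0.92), while its score was lower with a change of -1.53 (limma adjusted p = 0.0229) and its guide MCM6_3 had no read in any day-14 library of either arm.

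CDC45, GINS1 to GINS4 and MCM10, the factors that complete or help to load the CMG helicase, had 15 of 24 guides below -1 and 5 of 6 scores lower. GINS4 had 6.47, 4.73 and 5.15 scaled RPM in day-14 DMSO, against 27.4, 34.4 and 33.2 at day 0. The 3 DMSO libraries lay close together and far below the day-0 libraries. Its log2 fold change was -2.54 ± 0.51 (edgeR adjusted p = 0.0681, and 0.0119 with the replicate block), the lowest p of the members. MCM10 had 4.23, 9.51 and 3.56 in day-14 DMSO, against 21.6, 22.6 and 17.4 at day 0, also without overlap (-1.83 ± 0.50, adjusted p = 0.153, and 0.0228 with the block). GINS1 had 94.6, 23.4 and 5.83 in day-14 DMSO, against 25.8, 28.5 and 26.9 at day 0. Its replicates lay on both sides of day 0, the fold change of the sum was 0.61 ± 1.11 (adjusted p = 0.863), and the score was lower with a change of -1.57 (adjusted p = 0.0488).

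CDC7, the kinase that fires loaded origins, had 0.194, 2.34 and 2.53 scaled RPM in day-14 DMSO, against 7.99, 8.3 and 8.16 at day 0. All 3 DMSO libraries were below day 0, replicate 1 by the most (-2.27 ± 1.15, edgeR adjusted p = 0.494). DBF4, its activating subunit, had 23.6, 14.3 and 6.29 in day-14 DMSO, against 32, 21.5 and 25.2 at day 0. These groups overlapped in replicate 1 of DMSO (-0.83 ± 0.51, adjusted p = 0.581). Both were lower by gene scores, CDC7 with a change of -1.49 (adjusted p = 0.00218) and DBF4 with a change of -1.39 (adjusted p = 0.0165).

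Polymerase alpha-primase, which lays down the primers, had the smallest share of lost guides among the polymerases, with 6 of 16 (37.5%) below -1 and no member lower by gene scores. POLA1, the catalytic subunit, had 12.5, 0.38 and 0.766 scaled RPM in day-14 DMSO, against 14.5, 5.71 and 7.45 at day 0. Each replicate was below its own day-0 level, by little in replicate 1, and the groups overlapped (-1.02 ± 1.35, edgeR adjusted p = 0.81). PRIM1, the catalytic subunit of primase, had 2.07, 171 and 115 in day-14 DMSO, against 25.5, 26.9 and 27.6 at day 0. Replicate 1 was far below and the others far above day 0 (1.85 ± 1.44, adjusted p = 0.662). The high levels came from guide PRIM1_3, with 69, 6830 and 4169 reads in day-14 DMSO, against 690, 853 and 778 at day 0, and in replicate 2 also from PRIM1_1, with 3461 reads.

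Of the lagging-strand polymerase delta, POLD1, its catalytic subunit, had 6.55, 9.38 and 0.687 scaled RPM in day-14 DMSO, against 17.2, 25.4 and 11.7 at day 0. The groups did not overlap (-1.71 ± 1.12, edgeR adjusted p = 0.604, and -2.50 with an adjusted p of 0.0481 with the replicate block). POLD3, an accessory subunit, had 2.86, 32.9 and 232 in day-14 DMSO, against 19.7, 22.8 and 29 at day 0, with replicate 3 highest by far (1.90 ± 1.48, adjusted p = 0.661). In that library POLD3_3 had 6336 reads, against 11 and 2 in the other DMSO libraries.

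The leading-strand polymerase epsilon had 4 of 8 guides below -1 and both members lower by gene scores. POLE, the catalytic subunit, had 6.45, 13 and 3.5 scaled RPM in day-14 DMSO, against 13.2, 11.7 and 12.5 at day 0. Replicate 2 lay among the day-0 libraries and the other replicates below them (-0.70 ± 0.89, adjusted p = 0.801). POLE2 had 11.4, 29.6 and 9.59 in day-14 DMSO, against 32.8, 39.6 and 29.2 at day 0. Its groups overlapped by a narrow margin through replicate 2 (-1.01 ± 0.73, edgeR adjusted p = 0.64).

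PCNA and the 5 RFC subunits had 14 of 24 guides below -1 and 4 of 6 scores lower. RFC3, a small loader subunit, had 3.21, 0.933 and 0.314 scaled RPM in day-14 DMSO, against 19.3, 15.2 and 17.5 at day 0. Every DMSO library was far below every day-0 library, and the log2 fold change of -3.54 ± 1.01 was the lowest of the 42 members (edgeR adjusted p = 0.175, and 0.057 with the replicate block). Its score was lower with a change of -2.66, also the lowest (limma adjusted p = 9.93e-05), and it was the member that passed robust rank aggregation at day 8 (adjusted p = 0.046). RFC1, the large subunit, had 30.6, 3.64 and 129 in day-14 DMSO, against 15.2, 16 and 19.5 at day 0. Its replicates lay on both sides of day 0 (1.69 ± 1.21, adjusted p = 0.637), and its score changed by -0.15 (adjusted p = 0.896), the smallest change of all members. RFC4 had 9.6, 8.59 and 8.96 in day-14 DMSO, against 23.5, 15.7 and 22.1 at day 0, without overlap (-1.17 ± 0.47, adjusted p = 0.37). RFC1_4 held 5025 of the reads in replicate 3 and 1 read in replicate 1, while RFC1_3 had none in any day-14 library of either arm.

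RPA had 7 of 12 guides below -1, yet none of its 3 subunits passed by sum or by score. RPA1, the large DNA-binding subunit, had 26.3, 35.8 and 5.79 scaled RPM in day-14 DMSO, against 46.9, 45.8 and 45.2 at day 0. The groups did not overlap (-1.02 ± 0.87, edgeR adjusted p = 0.691). RPA2 had 25.6, 3.62 and 5.32 in day-14 DMSO, against 22.5, 19.8 and 22.2 at day 0, with replicate 1 above day 0 and the others far below (-0.90 ± 1.24). RPA3, the smallest subunit, had 9.13, 1.36 and 15.5 in day-14 DMSO, against 15.1, 14.8 and 10.9 at day 0, with replicate 3 above every day-0 library (-0.65 ± 1.21, adjusted p = 0.864).

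Of ribonucleotide reductase, RRM2, the subunit that carries the radical, had 1.15, 5.41 and 18.4 scaled RPM in day-14 DMSO, against 13.7, 16 and 15.3 at day 0. Replicates 1 and 2 were below day 0 and replicate 3 above it (-0.85 ± 1.02, edgeR adjusted p = 0.788). RRM1, the catalytic subunit, had 31, 1.2 and 7.62 in day-14 DMSO, against 9.67, 5.84 and 4.31 at day 0. It was higher than at day 0 in replicates 1 and 3 and lower in replicate 2 (1.01 ± 1.15, adjusted p = 0.776). RRM2 was lower by gene scores (-1.28, limma adjusted p = 0.0459), while RRM1 was not (-0.89, adjusted p = 0.0848).

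By day 8 the same screen had 13 of 42 members (31%) with all DMSO libraries below all day-0 libraries, against 9.33% of all genes. No member passed on the sums (0 of 42, with 0% of all genes, and 4 members at an unadjusted p below 0.05), nor with the replicate block (0%) or by DESeq2 (0.0925%). By gene scores 5 were lower, namely GINS2, GINS4, CDC7, PCNA and RFC3 (11.9% of members and 1.84% of all genes). The median log2 fold change of the sums was -0.59 over members, against 0.08 over all genes.

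Beside the members, a list of 52 further replication genes (checkpoint kinases, cyclins, primer removal, nucleotide supply and fork protection) had 41.5% of its 207 tested guides below -1 at day 14 in DMSO, with a median of -0.40 over the summed genes and 0 of 52 called. Proteasome genes, another list of genes that dividing cells need, had 53.2% of guides below -1 and a median of -0.58. RNA polymerase II subunits had 47.8% and a median of 0.19. The share of 51.5% among the members lay between those of the proteasome and RNA polymerase II lists.

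No change of a member under vemurafenib was called in the whole-genome screen of MED12 KO cells. At day 14 none of the 42 passed against DMSO (0% of all genes did, by edgeR, and 1 member, GINS4, had an unadjusted p below 0.05), and none did by DESeq2 (0.381%) or by gene scores, rank aggregation or the replicate block (0% each). The sums had a median log2 fold change of 0.66, against 0.14 over all genes, with 32 of 42 above 0, but the gene scores had a median of 0.03 with 21 on each side. The widest fold change was that of ORC3, with 53.9, 633 and 25 scaled RPM in vemurafenib, against 13.7, 140 and 7.58 in DMSO. Vemurafenib was higher in each of the 3 same-numbered pairs, yet the groups overlapped because replicate 2 was high in both arms (2.14 ± 1.24, edgeR adjusted p = 0.979). RPA3 had 22.8, 0.444 and 84.2 in vemurafenib, against 9.13, 1.36 and 15.5 in DMSO, and so differed in direction between replicates (2.05 ± 1.25, adjusted p = 0.979).

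RFC4 was the member whose groups did not overlap at day 14, with 27.9, 11 and 13.7 scaled RPM in vemurafenib, against 9.6, 8.59 and 8.96 in DMSO (0.95 ± 0.47, edgeR adjusted p = 0.979). Such a separation upwards held for 1 of 42 members (2.38%) and for 1.26% of all genes. The lowest fold change was that of MCM6, which had 9.91, 46.8 and 12.7 in vemurafenib, against 32.4, 70.9 and 22.3 in DMSO. It was lower in each same-numbered pair, with overlapping groups (-0.85 ± 0.62, adjusted p = 0.979). ORC6 had 688, 214 and 56.7 in vemurafenib, against 236, 99.3 and 27.6 in DMSO, higher in each pair (1.40 ± 1.02, adjusted p = 0.979). At day 8 no member passed either (median 0.22, 0% of all genes and 0 members at an unadjusted p below 0.05), nor did any for the change of the drug effect between day 8 and day 14.

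The vemurafenib libraries were also set against day 0, which is the same day 0 as for DMSO. No member passed on the sums (0 of 42, where 3.2% of all genes did, with 7 members at an unadjusted p below 0.05), and 8 passed with the replicate block, where 17.6% of all genes did. CDC6, CDT1, GINS4, MCM10, POLD1, PCNA and RPA2 fell (9.78% of all genes) and ORC6 rose by 3.40 (adjusted p = 0.00368; 7.86%). By gene scores 26 members (61.9%) were lower, against 29% of all genes, and DESeq2 called 3 (16.6%). Of the further genes, TOPBP1, which helps to start and to survey replication, fell by 3.20 ± 0.76 (edgeR adjusted p = 0.0415). MCM9, a helicase paralogue, fell by 1.54 ± 0.37 (edgeR adjusted p = 0.0426). On the sums 1.36% of all genes fell. With only the groups compared 0% of all genes passed, so neither TOPBP1 nor MCM9 did.

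In the epigenetic screen of MED23 KO cells, with 10 guides per gene and a start population near the untargeted guides, 7 of the 8 members fell in growth to day 14 by edgeR's quasi-likelihood test, against 30.4% of all genes. RPA2 was the exception. Of 80 member guides 55 (68.8%) were below -1, against 25.3% of guides to all genes and 0% of untargeted guides, and 53 guides passed the test as lower (23.8% of guides to all genes) and 2 as higher (9.34%). The median over the 8 members was -0.96, against 0.04 over all genes, and all 8 also passed as lower by gene scores (45.1% of all genes did).

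RRM1 lost the most, with 64.6, 48.9 and 44.7 scaled RPM in day-14 DMSO, against 530, 581 and 566 at day 0. The groups were far apart, and all 10 of its guides were below -1 (-3.41 ± 0.45, edgeR adjusted p = 0.000272). Guide RRM1_7 had 0.0875, 0.0393 and 0.122 RPM in day-14 DMSO, against 65.8, 71.7 and 74 at day 0. POLE had 100, 81.1 and 60.9 scaled RPM in day-14 DMSO, against 578, 535 and 554 at day 0. It was well separated too, with 9 of 10 guides below -1 (-2.78 ± 0.21, adjusted p = 7.76e-06). RPA1 had 113, 64.2 and 94.2 in day-14 DMSO, against 470, 517 and 469 at day 0, again with 9 of 10 guides below -1 (-2.42 ± 0.23, adjusted p = 3.37e-05). A single RPA1 guide held 62.7% of the reads that were left.

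The 3 initiation factors of this library fell, with log2 fold changes between -0.99 and -0.90. CDC6 had 370, 363 and 369 scaled RPM in day-14 DMSO, against 757, 743 and 683 at day 0 (-0.99 ± 0.09, edgeR adjusted p = 3.16e-05). Its DMSO libraries were nearly equal and none overlapped day 0, and all 10 guides were below 0. ORC1 had 315, 257 and 317 in day-14 DMSO, against 564, 553 and 584 at day 0 (-0.94 ± 0.16, adjusted p = 0.00125). ORC4 had 385, 327 and 420 in day-14 DMSO, against 655, 731 and 727 at day 0 (-0.90 ± 0.24, adjusted p = 0.0146). Neither overlapped its day-0 libraries, and 5 guides of ORC1 and 6 of ORC4 were below -1. By rank aggregation CDC6 and ORC1 did not pass (adjusted p = 0.771 for both), and ORC4 lost its call without replicate 2 of DMSO (-0.81, edgeR adjusted p = 0.0576).

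The size of these values depended on the scaling. With libraries scaled on the untargeted guides the log2 fold changes were -2.14 for CDC6, -2.09 for ORC1 and -2.06 for ORC4, and the median of the 8 members was -2.11, against -1.11 over all genes. All 8 members passed as lower under that scaling, as did 91.7% of all genes, with 0% higher, whereas the TMM values gave 30.4% lower and 17.9% higher. A change of scaling moves all genes of a comparison by nearly the same amount. The distance between both medians could thus hardly differ between the scalings, and its likeness is no check.

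RFC4, a small loader subunit, had 380, 410 and 381 scaled RPM in day-14 DMSO, against 622, 615 and 561 at day 0 (-0.62 ± 0.16, edgeR adjusted p = 0.0112). Its groups did not overlap and 7 of 10 guides were below -1, while a single guide held 44.3% of the DMSO reads. Without its guide largest at day 0 RFC4 did not pass (-0.35, adjusted p = 0.128). RPA2 had 540, 508 and 484 in day-14 DMSO, against 588, 538 and 549 at day 0 (-0.13 ± 0.19, adjusted p = 0.6), but passed as lower without its guide largest at day 0 (-0.62, adjusted p = 0.0212). These groups overlapped in a narrow band. Its guides split evenly, 5 below -1 and 5 above 0, from -5.39 for RPA2_9 to 0.88 for RPA2_7, which passed as higher (adjusted p = 0.00646). The score of RPA2 was lower with a change of -1.31 (limma adjusted p = 2.55e-06).

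**Figure D4:**
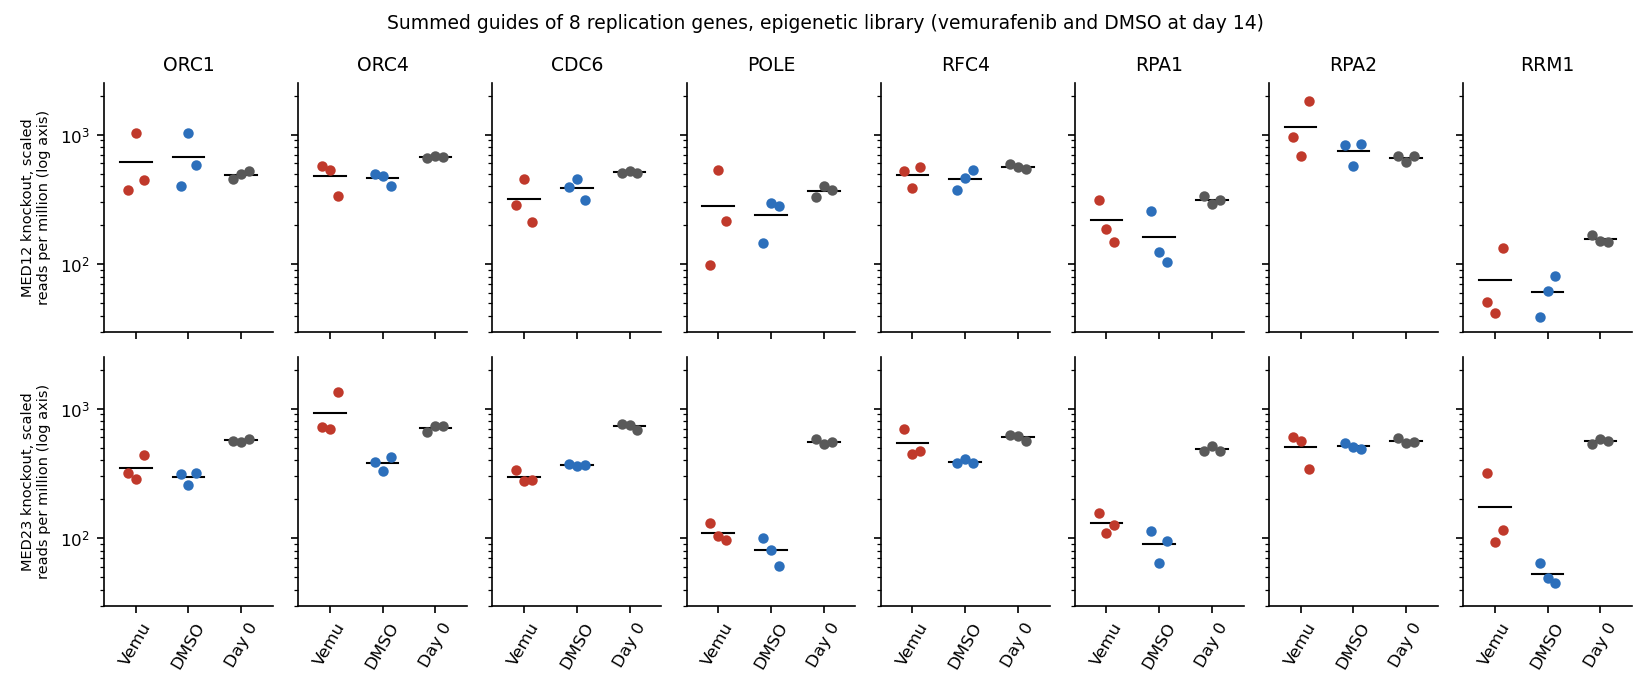
Scaled RPM (scaled reads on the axis, log scale) of the 8 replication genes of the epigenetic library in MED12 KO cells (upper row) and MED23 KO cells (lower row), for day-14 vemurafenib, day-14 DMSO and day 0, with 3 libraries each and black lines at the means. In MED23 KO cells RRM1 has 44.7 to 64.6 in DMSO, against 530 to 581 at day 0, and ORC4 lies higher in all vemurafenib libraries than in DMSO.

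The same library in MED12 KO cells gave smaller and more scattered losses. None of the 8 members passed growth to day 14 (0 of 8 by edgeR, where 10.1% of all genes passed, with 3 members at an unadjusted p below 0.05), although in 6 of 8 (75%) all DMSO libraries were below all day-0 libraries, against 20.5% of all genes. With the replicate number as a block, which pairs the libraries of this screen, RRM1, RPA1 and ORC4 fell (11.9% of all genes did). DESeq2 called 2 (15.3% of all genes), gene scores called 7 as lower (44.5%) and rank aggregation called 0 (5.2%). Of 80 guides 25 (31.2%) were below -1, against 14.6% of guides to all genes and 0% of untargeted guides.

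RRM1 was again lowest, with 39.2, 61.4 and 80.7 scaled RPM in day-14 DMSO, against 169, 150 and 148 at day 0 (-1.37 ± 0.42, edgeR adjusted p = 0.0521, and -1.44 with 0.00782 with the block). All DMSO libraries were below day 0, and day 0 itself was low: the gene had 559 ± 26.4 at day 0 in MED23 KO cells (SD, n = 3). RPA1 had 255, 124 and 104 in day-14 DMSO, against 335, 291 and 313 at day 0 (-0.96 ± 0.38, adjusted p = 0.13, and 0.00439 with the block). Replicate 1 stayed nearest to day 0. ORC4 had 493, 478 and 402 in day-14 DMSO, against 662, 682 and 668 at day 0 (-0.55 ± 0.19, adjusted p = 0.0869, and 0.0278 with the block).

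The other members of this screen did not pass under the block either. CDC6 had 390, 454 and 313 scaled RPM in day-14 DMSO, against 503, 523 and 508 at day 0 (-0.41 ± 0.25, edgeR adjusted p = 0.355). POLE had 146, 296 and 279, against 332, 398 and 374 (-0.61 ± 0.50, adjusted p = 0.499), and RFC4 had 374, 463 and 532, against 591, 565 and 538 (-0.31 ± 0.18, adjusted p = 0.315), in the same groups. These 3 lay below day 0 in every DMSO library. ORC1 had 399, 1030 and 585 in day-14 DMSO, against 454, 499 and 519 at day 0 (0.45 ± 0.40, adjusted p = 0.532), and RPA2 had 836, 569 and 852, against 684, 616 and 677 (0.19 ± 0.28, adjusted p = 0.723). Both overlapped day 0 and had 5 of 10 guides below 0.

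In MED23 KO cells some replication guides lost in DMSO were higher under vemurafenib. The median member guide stood at 15.4, 15.8 and 15% of the untargeted level in vemurafenib, against 9.46, 7.13 and 7.72% in DMSO. The groups did not overlap, and the median over guides to all genes was likewise higher, at 37.3, 38.8 and 35% in vemurafenib against 29.5, 29.4 and 30.4% in DMSO. Of 80 member guides 33 (41.2%) had a log2 fold change above 1, against 18% of guides to all genes, and 14 passed as higher (7.98% of guides to all genes) and 1 as lower (1.07%). Of the 8 members 2 rose (18.5% of all genes did) and 1 fell (6.1%), with a median of 0.46 against 0.12 over all genes. Scaled on the untargeted guides, 6 members rose, as did 46.1% of all genes (1.26% fell), and the medians were 0.76 over members and 0.43 over all genes. In the vemurafenib libraries the top 1% of guides held 41.5, 56.2 and 51% of the reads, against 5.9, 5.87 and 5.79% in DMSO, and its part in these differences was not tested.

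ORC4 had 722, 693 and 1350 scaled RPM in vemurafenib, against 385, 327 and 420 in DMSO. All vemurafenib libraries were above all DMSO libraries, replicate 3 by the most, and all 10 guides were above 0 (1.29 ± 0.25, edgeR adjusted p = 0.00601). Without replicate 3 of vemurafenib the value was 0.91 (adjusted p = 0.00089). RRM1 had 316, 92.4 and 115 in vemurafenib, against 64.6, 48.9 and 44.7 in DMSO, without overlap and with all 10 guides above 0 (1.73 ± 0.42, adjusted p = 0.0194). Replicate 1 was high through guide RRM1_5, which had 170, 2.02 and 15.5 RPM in vemurafenib, against 17.7, 4.13 and 18.9 in DMSO. Without that library the value was 0.97 and still passed (adjusted p = 0.00684), while without replicate 2 or replicate 3 of DMSO it was 1.67 and 1.62 and did not (adjusted p = 0.0643 and 0.0704). RRM1_7, almost absent from DMSO, had 2.04, 1.95 and 3.38 RPM in vemurafenib (5.89, edgeR adjusted p = 0.000298). The size of that change rests on very few DMSO reads, and the guide was picked after its values were seen. In vemurafenib RRM1_7 was still far below its day-0 level.

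CDC6 had 334, 277 and 280 scaled RPM in vemurafenib, against 370, 363 and 369 in DMSO. The difference was small and the groups did not overlap (-0.30 ± 0.09, edgeR adjusted p = 0.0395). It was 0 when libraries were scaled on the untargeted guides (adjusted p = 0.97), and it lost the call in 5 of the 6 fits that left out a library. The other members did not pass: RFC4 had 697, 449 and 469 in vemurafenib, against 380, 410 and 381 in DMSO (0.46 ± 0.16, adjusted p = 0.066), without overlap. RPA1 had 156, 109 and 127, against 113, 64.2 and 94.2 (0.53 ± 0.22, adjusted p = 0.111), and POLE had 131, 103 and 96.6, against 100, 81.1 and 60.9 (0.45 ± 0.19, adjusted p = 0.131), each with 1 vemurafenib library inside the range of DMSO. ORC1 had 316, 285 and 437, against 315, 257 and 317 (0.22 ± 0.16, adjusted p = 0.333), and RPA2 had 605, 558 and 339, against 540, 508 and 484 (-0.03 ± 0.19, adjusted p = 0.924). By limma on gene scores 7 of 8 were higher in vemurafenib, all but CDC6, against 29% of all genes.

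In the vemurafenib cultures of MED23 KO cells most members were still below day 0. CDC6, POLE, RPA1, RRM1 and ORC1 were lower (5 of 8, against 26.6% of all genes), with log2 fold changes between -2.33 ± 0.20 for POLE (edgeR adjusted p = 3.9e-05) and -0.71 ± 0.16 for ORC1 (adjusted p = 0.00624). ORC4, with 923 ± 374 scaled RPM in vemurafenib and 704 ± 42.9 at day 0 (SD, n = 3 each), did not pass (0.39 ± 0.24, adjusted p = 0.207). This comparison with day 0 was added once values were known and shares its libraries with the growth and the drug comparison.

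In MED12 KO cells no member of the epigenetic library passed for vemurafenib against DMSO (0 of 8 called by edgeR, where 2.33% of all genes were, and 1, RPA2, at an unadjusted p below 0.05). No other test or setting called one. RPA2 had 962, 688 and 1800 scaled RPM in vemurafenib, against 836, 569 and 852 in DMSO, higher in each pair but overlapping (0.61 ± 0.28, adjusted p = 0.44). ORC4 had 572, 533 and 335 in vemurafenib, against 493, 478 and 402 in DMSO (0.07 ± 0.19, adjusted p = 0.936). RRM1 had 50.9, 41.7 and 134, against 39.2, 61.4 and 80.7 (0.32 ± 0.41, adjusted p = 0.854). Both overlapped between the arms.

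The remaining members overlapped between the arms as well. POLE had 98.1, 536 and 216 scaled RPM in vemurafenib, against 146, 296 and 279 in DMSO, and ORC1 had 371, 1020 and 442, against 399, 1030 and 585. ORC1 was lower in each pair, by little in replicates 1 and 2 (-0.13 ± 0.40, edgeR adjusted p = 0.941). CDC6 had 288, 451 and 211, against 390, 454 and 313, and was lower in each pair (-0.28 ± 0.25, edgeR adjusted p = 0.748). RPA1 had 314, 186 and 149, against 255, 124 and 104, and was higher in each pair (0.42 ± 0.37, adjusted p = 0.742), and RFC4 had 522, 384 and 560, against 374, 463 and 532.

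The difference between the genotypes was tested with both epigenetic screens in a single model, over their libraries at the start and at day 14. All 8 members had a higher growth value in MED12 KO than in MED23 KO cells, with a median difference of 0.94 against 0.04 over all genes, and POLE passed (1 of 8, against 9.42% of all genes). For POLE the difference was 2.13 ± 0.61 (edgeR adjusted p = 0.0363), and each screen fitted alone gave -0.61 in MED12 KO and -2.78 in MED23 KO cells. Scaled on the untargeted guides all 8 members passed as higher, but so did 69.3% of all genes, with medians of 1.97 over members and 1.04 over all genes. On the TMM values no member passed in 10 of the 12 fits that left out 1 library. RRM1 differed by 2.00 ± 0.66 and RPA1 by 1.43 ± 0.47, and neither passed (adjusted p = 0.0686 for both, and 0.0314 for RPA1 with the replicate block). That block joined same-numbered libraries across both screens, although the numbers of the MED23 KO libraries did not pair. Its value cannot be read as a paired test. At day 0 RRM1 was lower in MED12 KO than in MED23 KO cells, with a difference of -2.06 ± 0.48 (adjusted p = 0.0197, 1 of 8 called and 6.73% of all genes), and 7 of 8 members were below 0 there. By day 14 in DMSO RRM1 did not pass (-0.06 ± 0.46, adjusted p = 0.946), and POLE was higher in MED12 KO cells by 1.32 ± 0.43 (adjusted p = 0.0373, 1 of 8 called and 22.7% of all genes). These comparisons at a single day were chosen after seeing the data.

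The drug effect differed between the genotypes for ORC4 (1 of 8, against 5.02% of all genes), by -1.23 ± 0.33 (edgeR adjusted p = 0.0396). With the replicate block, which again joined both screens by number alone, the edgeR adjusted p was 0.0646. Each screen fitted alone gave ORC4 a log2 fold change of 0.07 in MED12 KO and 1.29 in MED23 KO cells. The median difference of the 8 members was -0.29, against -0.09 over all genes. Without replicate 3 of vemurafenib in MED23 KO cells no member passed, and the same held without any of 5 of the 6 DMSO libraries. Dose (2 µM in MED12 KO and 1 µM in MED23 KO cells), genotype and start population differ together between the screens and cannot be told apart.

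**Figure D5:**
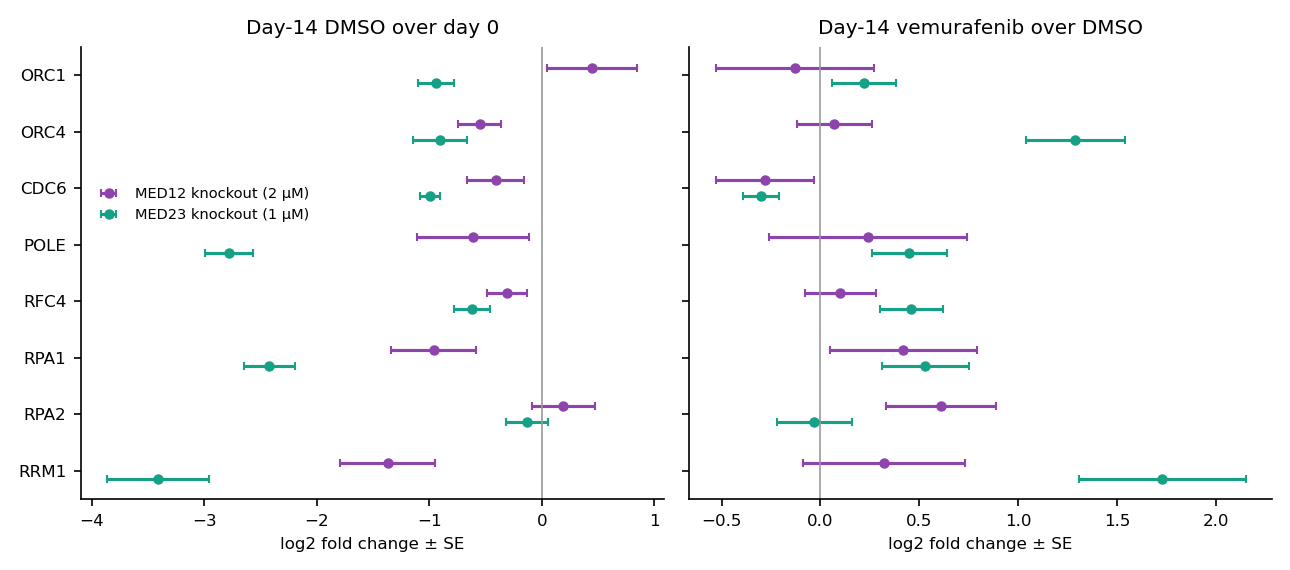
Log2 fold change ± SE of the 8 replication genes of the epigenetic library in MED12 KO cells (purple) and MED23 KO cells (green), for day-14 DMSO over day 0 (left) and day-14 vemurafenib over DMSO (right), with 3 libraries per group. POLE at -2.78 and RRM1 at -3.41 lie lowest in MED23 KO growth, and ORC4 at 1.29 and RRM1 at 1.73 lie highest under the drug in those cells.

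The further replication genes of the epigenetic library, 7 of the 52 listed, moved in the same screens. In MED23 KO cells 5 of 7 fell in growth, where 30.4% of all genes did: the checkpoint kinases ATR (-2.12 ± 0.10, edgeR adjusted p = 8.05e-07) and CHEK1 (-2.14 ± 0.12, adjusted p = 2.11e-06), the polymerase epsilon histone-fold subunits POLE3 (-1.11 ± 0.07) and POLE4 (-0.37 ± 0.11), and the S-phase kinase CDK2 (-0.65 ± 0.19). Under vemurafenib 3 of 7 rose there, where 18.5% of all genes did, namely CDK2 (0.61 ± 0.19, adjusted p = 0.0458), CHEK1 (0.51 ± 0.12) and ATR (0.46 ± 0.10). In MED12 KO cells ATR fell in growth (-0.80 ± 0.23, edgeR adjusted p = 0.0422), where 5.65% of all genes did. CDK2 fell under vemurafenib there (-0.68 ± 0.16, edgeR adjusted p = 0.0385), where 0.717% of all genes did. CDK2 had 404, 362 and 273 scaled RPM in vemurafenib, against 501, 593 and 575 in DMSO, in MED12 KO cells, and 468, 545 and 818 in vemurafenib, against 359, 434 and 405 in DMSO, in MED23 KO cells. The drug effect on CDK2 thus ran in opposite directions in the main fits, with no overlap of the arms in either screen. The difference was -1.30 ± 0.27 (edgeR adjusted p = 0.00922), and 5.02% of all genes passed for it. With only the groups compared, 0% of all genes were called lower under vemurafenib in MED12 KO cells. The fall of CDK2 did not pass there, and CDK2 was not followed across the other settings. Among proteasome genes of the library 8 of 10 fell in growth of MED23 KO cells (median -1.76, and 30.4% of all genes) and 7 of 10 rose under vemurafenib (median 0.63, and 18.5% of all genes), so rises under the drug in MED23 KO cells were also measured outside replication.

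The 8 shared members can be set side by side in both MED12 KO screens, which used 4 and 10 guides per gene. For RRM1 growth was 1.01 ± 1.15 in the whole-genome screen and -1.37 ± 0.42 in the epigenetic screen, and for CDC6 -2.01 ± 0.75 and -0.41 ± 0.25. POLE had -0.70 ± 0.89 and -0.61 ± 0.50, RPA1 -1.02 ± 0.87 and -0.96 ± 0.38, and RFC4 -1.17 ± 0.47 and -0.31 ± 0.18, in the same order. ORC1 had -1.18 ± 0.83 and 0.45 ± 0.40, ORC4 -0.10 ± 0.98 and -0.55 ± 0.19, and RPA2 -0.90 ± 1.24 and 0.19 ± 0.28. The sign differed for RRM1, ORC1 and RPA2, and the difference between the libraries was not tested.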

How the data were processed

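Guides were amplified from genomic DNA of A375 cells and sequenced, and reads per guide were counted. Per the submitters' processing notes, bcl2fastq, HISAT2 and HTSeq were used, with versions and genome build not given in the sources used here, and the deposited values are raw counts per guide. From these counts, guides of a gene were summed and tested with edgeR 4.0.16 in R 4.3.3 (quasi-likelihood, TMM scaling, filterByExpr with a minimum count of 10 and a minimum total of 15), with Benjamini-Hochberg adjustment over all genes and a threshold of 0.05. Gene scores, the mean over guides of log2(CPM + 0.5), were tested with limma 3.58.1. Alternatives were DESeq2 1.42.0, scaling on untargeted guides, no filter, robust rank aggregation, a replicate block, only the groups compared, the sum without the guide largest at day 0, and leaving out each library. Simulated data were used to check edgeR's test without a block, on libraries drawn independently, and the chance distribution of rank aggregation. The gene score was checked only for returning a made shift. DESeq2 and the replicate block were not checked in this way.

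The replicate number was tested as a pairing. Deviations of same-numbered libraries correlated by 0.39 to 0.92 in the whole-genome screen and by 0.2 to 0.89 in the epigenetic screen of MED12 KO cells, so the numbers pair those libraries, but by -0.19 to 0.34 in MED23 KO cells, where they share only a number. Values in every library are given for the members with the lowest and highest growth log2 fold change of each role in the whole-genome screen, for members called under vemurafenib and for all 8 of the epigenetic library; MCM10, ORC3 and single guides were added after their values were seen. The members and lists were chosen with earlier results of these data known. The files hold no guide sequences, so none is printed, and no genome position is given.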

Additional observations from a re-analysis of the deposited data

Results flagged for a closer look

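POLE differed in growth between the genotypes by 2.13 ± 0.61 on the log2 scale, MED12 KO minus MED23 KO (edgeR adjusted p = 0.0363 for the difference itself). ORC4 differed in its response to vemurafenib by -1.23 ± 0.33, MED12 KO minus MED23 KO (edgeR adjusted p = 0.0396 for the difference itself). Neither call held in every fit. With a library left out, 0 to 2 members passed for growth and 0 to 1 for the drug effect. Genotype and start population cannot be told apart in either comparison. For ORC4 the dose of vemurafenib differs with them, while the growth comparison of POLE holds no vemurafenib library.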

How the results depend on the processing

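Counts of members called are given here with the share of all genes called in parentheses. In the whole-genome screen, growth to day 14 gave 0 on the sums (0.0366%), 4 by DESeq2 (4.66%), 25 by gene scores (17%) and 5 with the replicate block (4.72%). Vemurafenib against day 0 gave 0 on the sums (3.2%), 3 by DESeq2 (16.6%), 26 by gene scores (29.3%), 8 with the replicate block (17.6%), 1 without the guide largest at day 0 (0.398%), and 0 to 2 when a library was left out. Growth to day 8 gave 5 by gene scores (1.85%) and 1 by rank aggregation (0.262%). In the epigenetic screen of MED12 KO cells, growth gave 0 on the sums (10.1%), 2 by DESeq2 (15.3%), 2 with scaling on untargeted guides (11%), 7 by gene scores (47%), 3 with the replicate block (21.2%), 2 with only the groups compared (12.4%) and 0 to 1 with a library left out. In MED23 KO cells growth gave 7 on the sums (48.3%), 8 with scaling on untargeted guides (91.7%), 5 by rank aggregation (18.2%) and 6 to 7 with a library left out. Vemurafenib against DMSO there gave 3 (24.6%), 5 by DESeq2 (34.7%), 6 with scaling on untargeted guides (47.4%), 7 by gene scores (36.8%), 1 by rank aggregation (10.8%), 1 with only the groups compared (10.9%) and 1 to 3 with a library left out. For MED12 KO minus MED23 KO, growth gave 1 (9.42%), 4 by DESeq2 (14.5%), 8 with scaling on untargeted guides (69.3%), 3 by gene scores (27.5%), 2 with the replicate block (10.6%), 4 with only the groups compared (30%) and 0 to 2 with a library left out. The drug effect there gave 1 (5.02%), 4 by gene scores (19.1%), 0 by rank aggregation (4.22%), 0 with the replicate block (4.75%), 0 without the guide largest at day 0 (2.78%), 0 with only the groups compared (1.88%) and 0 to 1 with a library left out. For MED12 KO minus MED23 KO the block joined libraries of both screens by number alone, so its counts are not those of a paired test.

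Single members of the whole-genome screen were followed across settings for growth to day 14 only, and only those lowest or highest of their role. CDC45, ORC3, POLA2 and RFC5, which also differed in sign between sum and score, were not among them. Among the members followed, directions turned for RFC1 (-0.15), GINS1 (-1.57), MCM6 (-1.53), ORC6 (-0.72), PRIM1 (-0.51), POLD3 (-0.97) and RRM1 (-0.89) by gene scores. By rank aggregation they turned for GINS1 (-0.88) and MCM6 (-2.14), and with the replicate block for GINS1 (-0.36) and MCM6 (0). Without the guide largest at day 0 they turned for GINS1 (-1.46), MCM6 (-1.71), RRM2 (0.11) and RRM1 (-0.31). With a library left out GINS1 ran from -0.89 to 1.12, MCM6 from -0.41 to 0.51, POLD3 from -0.41 to 2.47 and RRM1 from -0.58 to 1.55. In the epigenetic screen of MED12 KO cells, growth turned for ORC1 (-0.55) and RPA2 (-0.79) by gene scores and for RPA2 (-0.07) by rank aggregation, and ORC1 ran from 0 to 0.71 with a library left out. The drug effect there turned for ORC1 (0.01 with scaling on untargeted guides, 0.03 by rank aggregation), for ORC4 (-0.06), POLE (-0.2), RFC4 (-0.11), RPA1 (-0.1) and RRM1 (-0.09) by gene scores, and for ORC4 (-0.12) without the guide largest at day 0. With a library left out it ran from -0.72 to 0.31 for ORC1, -0.08 to 0.27 for ORC4, -0.61 to 0.64 for POLE, -0.02 to 0.25 for RFC4 and -0.38 to 0.62 for RRM1. In MED23 KO cells the drug effect turned for CDC6 (0) with scaling on untargeted guides and for RPA2 (0.28 with that scaling, 0.49 by gene scores, 0.37 by rank aggregation, 0.16 without the guide largest at day 0, and -0.19 to 0.19 with a library left out). The cause was not tested for any of these. Of the alternative values of single members, 639 kept direction and call, 52 gained a call, 17 lost it and 48 turned. Sums follow the guides with the most reads.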
